A study of Mus musculus with 7 samples.

Results

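Olfactory receptor genes are named Olfr in the mouse, and 1109 of the 21776 protein-coding genes placed on the assembled chromosomes carry that symbol. They were chosen by symbol alone, from the RefSeq annotation of GRCm38 (mm10), and each was taken with 2.5 kb on either side. Windows lying within 200 kb of each other were joined, which gave 62 clusters on 17 chromosomes, 28.9 Mb in all. The 24 clusters with 10 or more genes hold 987 of the genes (89.0%) in 25.6 Mb, another 23 clusters hold 2 to 9 genes each, and 15 genes stand alone. No measured value entered this choice.

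The study profiled histone marks and RNA in mouse zygotes and holds 7 samples: 2 of H3K4me1, 2 of RNA for them, 2 of H3K27me3 and 1 of RNA with those. The 2 H3K4me1 samples, described here, are batches of zygotes from 1 mouse each. As for all groups, the females were injected with 5 IU of PMSG and, 46 to 48 hours later, 5 IU of hCG, and zygotes were collected at 23 after hCG, for which no unit is stated. Zonae and cumulus cells were removed. No genetic change or drug is named, and a mouse strain is named only for the H3K27me3 samples. The fragments of both batches lie in 1 table, whose 16 library names cannot be tied to the batches, so that it counts as 1 pooled sample. With 1 sample and no untreated or control antibody library there is no replicate test, and every interval is an exact Poisson or binomial 95% interval of counting error alone. The 14 libraries with 5000 or more fragments gave 1404305 fragments, from 7106 to 197312 each with a median of 96240. CUT&Tag sends a transposase to antibody-bound chromatin, and its fragments were counted by their midpoints. A level is fragments per base divided by the autosomal mean, which was 5.62 fragments per 10 kb, so that 1 is the autosomal mean. The windows of 10 genes known from oocytes and zygotes had a level of 1.79 (1.54 to 2.07), with 6 above 1 by their interval and 1 below. Those of 8 cumulus cell genes had 0.978 (0.853 to 1.12) and a median of 1.21, with 4 above and 2 below.

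Olfactory receptors are G protein-coupled receptors that bind odorants on the cilia of sensory neurons in the nose. They form the largest gene family of the mouse, mostly as short coding exons packed in clusters, and each mature neuron transcribes a single allele of a single receptor gene. In those neurons the silent receptor genes lie in compacted heterochromatin, while distant enhancers bound by Lhx2, Ebf factors and Ldb1 gather at the chosen gene. H3K4me1 marks active and primed enhancers and the flanks of promoters in many cells. The clusters thus form gene-dense stretches whose best known use lies in a cell type far from the zygote.

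Promoter sequence was taken from RefSeq (GRCm38.p6), which gave 944 of the 1109 genes a window of 300 bases, 250 before to 50 after the annotated start. The models mostly hold the coding sequence alone: their median length was 951 bp, 78.7% were a multiple of 3 bases long, and 72.7% of the windows had ATG at the annotated start. The windows of 5 genes are printed here as the sequence behind both ends of the range: Olfr71 and Olfr62 are among the genes of highest level, and Olfr1157, Olfr860 and Olfr1506 had no fragment. Capitals mark TAATTA and TATAAA on either strand, and each CG. The first is a core read by LIM homeodomain factors such as Lhx2. The second is the sequence of a TATA box, but its distance from a transcription start is not known here. The palindrome bound by Ebf factors (TCCC and GGGA with any 2 bases between them) was searched too and is in none of these windows.
Olfr71 (mm10, chr4:43706517-43706816, minus strand): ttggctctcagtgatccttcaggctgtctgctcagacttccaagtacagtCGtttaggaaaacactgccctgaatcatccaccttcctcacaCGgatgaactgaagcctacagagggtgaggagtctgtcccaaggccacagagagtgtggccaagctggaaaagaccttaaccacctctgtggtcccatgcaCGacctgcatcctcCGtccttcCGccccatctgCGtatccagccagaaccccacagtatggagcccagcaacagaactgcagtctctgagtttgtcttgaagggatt
Olfr62 (mm10, chr4:118665269-118665568, plus strand): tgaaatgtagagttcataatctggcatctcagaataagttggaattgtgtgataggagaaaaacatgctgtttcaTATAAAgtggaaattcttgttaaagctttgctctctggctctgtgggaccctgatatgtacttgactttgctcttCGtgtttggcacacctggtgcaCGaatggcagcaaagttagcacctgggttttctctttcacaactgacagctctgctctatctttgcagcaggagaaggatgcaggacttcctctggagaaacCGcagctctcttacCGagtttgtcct
Olfr1157 (mm10, chr2:87968208-87968507, minus strand): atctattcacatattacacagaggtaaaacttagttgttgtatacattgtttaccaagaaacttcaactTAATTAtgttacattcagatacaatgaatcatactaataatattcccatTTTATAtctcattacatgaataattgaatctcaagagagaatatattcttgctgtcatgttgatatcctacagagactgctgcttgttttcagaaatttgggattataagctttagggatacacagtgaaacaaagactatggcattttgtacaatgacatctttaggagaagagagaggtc
Olfr860 (mm10, chr9:19849698-19849997, minus strand): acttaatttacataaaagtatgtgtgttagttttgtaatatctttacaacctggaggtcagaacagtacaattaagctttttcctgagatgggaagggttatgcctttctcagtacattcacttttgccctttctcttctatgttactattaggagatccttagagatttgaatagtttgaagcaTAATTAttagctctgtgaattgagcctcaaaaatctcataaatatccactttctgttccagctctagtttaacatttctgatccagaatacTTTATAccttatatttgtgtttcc
Olfr1506 (mm10, chr2:90224422-90224721, minus strand): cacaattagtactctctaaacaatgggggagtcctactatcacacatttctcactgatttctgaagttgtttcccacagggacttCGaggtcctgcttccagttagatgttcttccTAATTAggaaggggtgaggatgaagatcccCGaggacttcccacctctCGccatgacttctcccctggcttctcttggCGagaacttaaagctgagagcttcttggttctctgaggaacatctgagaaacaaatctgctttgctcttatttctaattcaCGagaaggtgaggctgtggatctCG

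These windows were poor in G and C. The Olfr windows had a median GC content of 35% (quartiles 31.7 and 39.7), against 56.3% for all 17492 protein-coding promoters. Most Olfr windows surround the start of the coding sequence, and they are called promoters below only for short. They held a median of 1 CG, against 13, and 316 of them (33.5%) held none, against 5.20% of all. TAATTA was in 176 of the 944 (18.6%), against 4.68% of all promoters, TATAAA was in 388 (41.1%), against 13.3%, and the Ebf palindrome was in 5 (0.530%), against 0.943%. TAATTA and TATAAA hold only A and T, and these shares were not adjusted for GC content. Of the printed windows, that of Olfr71 has 53.7% GC and 6 CG, and that of Olfr62 has 44.3% and 4, while those of Olfr1157 and Olfr860 have 31.0% and 33.0% and no CG. That of Olfr1506, also without a fragment, has 46.7% and 6 CG, as many as Olfr71.

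Across the gene windows, olfactory receptor genes carried fewer H3K4me1 fragments per base than other genes. Their level was 0.696 (0.671 to 0.721, from 2970 fragments over 7594 kb), against 1.15 (1.147 to 1.152) for the other protein-coding genes, a ratio of 0.605 (0.584 to 0.627). Olfr windows are short, with a median of 5.95 kb, against 22.2 kb over all protein-coding genes. Against the 4259 other genes with windows of similar size (5.92 to 11.4 kb), whose level was 1.28 (1.27 to 1.30), the ratio was 0.542 (0.522 to 0.563). The median window of that set, 8.4 kb, was still wider than that of Olfr genes. The median Olfr gene had 2 fragments and a level of 0.597 (quartiles 0.299 and 0.900), against 1.16 for the other genes of similar size and 1.19 over all protein-coding genes.

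Single genes rest on few fragments, so most cannot be told from the mean. The interval lay wholly above 1 for 32 Olfr genes (2.89%), where 28.2% of all protein-coding genes did so and 16.8% of the other genes of similar size. It lay wholly below 1 for 20 (1.80%), against 8.25% of all and 4.86% of those of similar size, but only 163 Olfr windows were wide enough to reach that call with no fragment at all. No fragment fell in 180 Olfr windows (16.2%), against 3.83% of all windows and 6.48% of those of similar size. Of the 32 above the mean, 14 lie in clusters of fewer than 10 genes, which held 1 of the 20 below it and 8 of the 180 without a fragment. The larger clusters hold 987 of the 1109 genes, and there these calls made up 1.82%, 1.93% and 17.4%.

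The genes with the highest lower bounds lay mostly in small clusters or in the few large ones of high level. Olfr71 on chromosome 4 (43705628 to 43706566), in a small cluster, stood at 4.19 (2.29 to 7.04), with 14 fragments that came from 7 libraries. Olfr1412 on chromosome 1 stood at 3.88 (2.06 to 6.63), with 13 fragments that came from 9 libraries. Olfr45 had a level of 3.83 and Olfr371 a level of 3.30, but 7 of the 13 fragments of Olfr45 and 6 of the 11 of Olfr371 came from a single library. Olfr1331, Olfr1328 and Olfr62 lie in the same cluster of 13 genes on chromosome 4, with levels of 3.59, 3.29 and 2.99. Olfr1358 had the most fragments of any member, 35 over a window of 28.1 kb, and a level of 2.22 (1.54 to 3.08). Olfr318 and Olfr768 had levels of 3.25 and 3.00, and 5 of the 11 and 5 of the 10 fragments came from a single library.

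Of the genes without a fragment, those with the widest windows were Olfr1506, Olfr1565, Olfr1157, Olfr1110 and Olfr860. At a count of 0 the interval reaches up to 0.543 for Olfr1506 and Olfr1565 each, 0.581 for Olfr1157, 0.666 for Olfr1110 and 0.719 for Olfr860. Olfr1506 and Olfr1565 are models of 7077 bp each on chromosome 2, and their promoters are equal at 300 of 300 bases. Reads from such copies may not be placed by an aligner, and its part in these zeros was not tested. All but Olfr860, on chromosome 9, lie in the same cluster of 222 genes.

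The receptors best known from work on odorant recognition and axon targeting spread over the same range. Olfr78, a class I receptor that also acts outside the nose in blood vessels and kidney, stood at 0.974 (0.519 to 1.67), with 13 fragments that came from 8 libraries. Its neighbour Olfr558, also found in vascular muscle, had 10 fragments and a level of 1.21 (0.579 to 2.22), and Olfr544, a receptor for azelaic acid, had 6 and a level of 1.16 (0.426 to 2.53). The window of Olfr78 overlaps Olfr560 and that of Olfr558 overlaps Olfr33, so their fragments may be shared. Olfr2 (I7, the octanal receptor), Olfr73 (mOR-EG, the eugenol receptor) and Olfr15 had levels of 1.32, 0.599 and 1.80, from 5, 2 and 6 fragments. Olfr16 (MOR23, the lyral receptor), Olfr17 (P2) and Olfr160 (M72) had 1 fragment each and levels of 0.294, 0.299 and 0.300. Olfr1507 (MOR28) had 2 fragments and a level of 0.331, and Olfr1509 had none, with an interval that reaches 1.09. The intervals of all these well-known receptors include 1.

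The other chemoreceptor families were low as well. The windows of 228 Vmn1r and 122 Vmn2r pheromone receptor genes had levels of 0.517 (0.469 to 0.568) and 0.467 (0.438 to 0.497), so that Olfr windows were 1.35 times (1.22 to 1.49) and 1.49 times (1.39 to 1.6) as high. The 35 Tas2r bitter taste receptor genes had a level of 0.462 (0.344 to 0.608), with Olfr windows 1.51 times as high (1.14 to 2.03). The 15 trace amine receptor genes (Taar) had a level of 0.806 (0.581 to 1.09), and the ratio of Olfr to Taar windows, 0.864 (0.637 to 1.20), included 1. The order was therefore Taar, Olfr, Vmn1r, Vmn2r and Tas2r, in which Taar and Olfr overlapped in their intervals, as did the last 3 with each other. The 6 Olfr genes of the X chromosome had a level of 1.15 (0.726 to 1.72), where that chromosome as a whole stood at 0.554. That level rests on 23 fragments, 9 of them in the window of Olfr1324. Their median was 1.05, against 0.684 for the other protein-coding genes of X.

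The low level held for whole clusters, not only for the windows around genes. The 24 clusters of 10 or more genes had a level of 0.643 (0.630 to 0.656, from 9253 fragments), against 1.115 (1.097 to 1.134) over the 500 kb on either side, a ratio of 0.576 (0.561 to 0.592). The clusters of 2 to 9 genes had a level of 0.916 (0.873 to 0.961) and a ratio to their flanks of 0.781 (0.742 to 0.821). Genes standing alone had a level of 1.11 (0.840 to 1.44) and a ratio of 1.02 (0.772 to 1.33). Level and depletion against the flanks thus followed cluster size across these 3 classes.

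**Figure D1:**
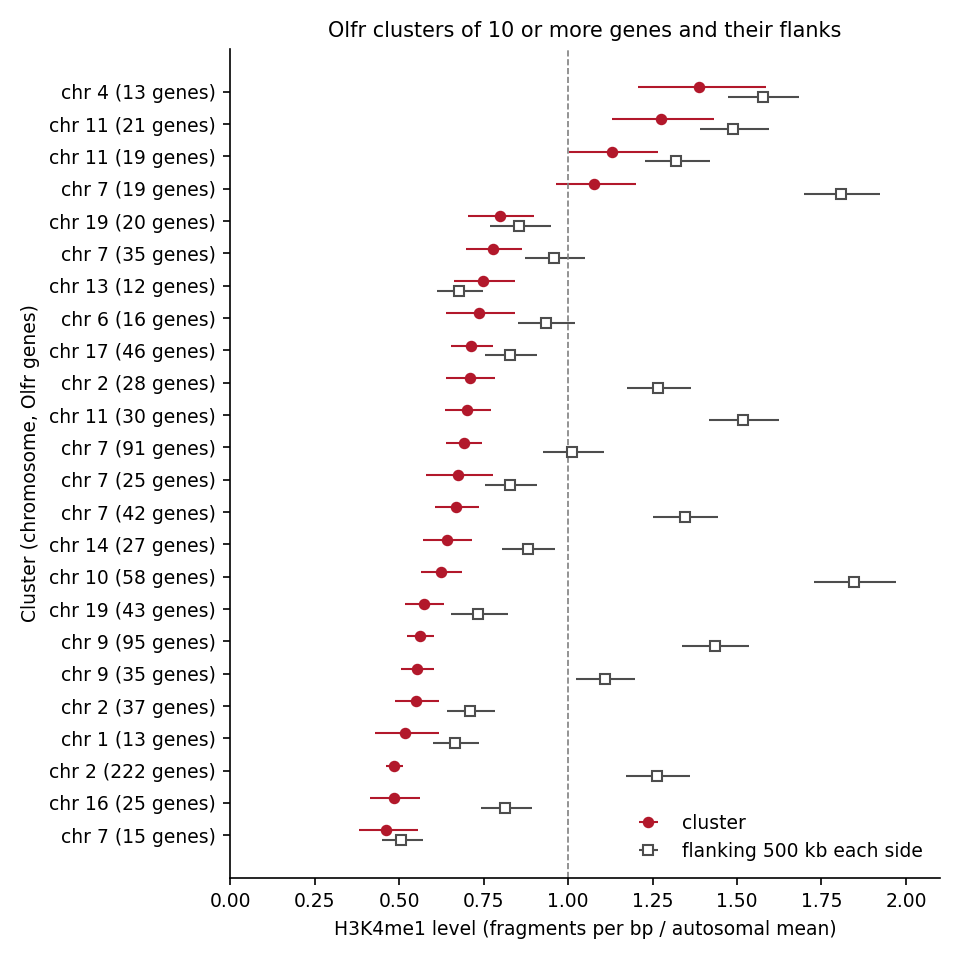
Level of each of the 24 clusters of 10 or more Olfr genes beside the level of its 500 kb flanks, in multiples of the autosomal mean, with 95% counting intervals. The cluster lies below its flanks in 23 of the 24, and the intervals of the ratio exclude 1 in 20.

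By cluster, 23 of the 24 had a lower level than their flanks, and the interval of the ratio lay below 1 in 20, included 1 in 4 and lay above 1 in none. The clusters ranged from 0.462 to 1.39 with a median of 0.682, and the flanks from 0.507 to 1.85 with a median of 0.985. The interval of the level lay below the autosomal mean in 20 clusters and above it in 3, against 10 and 11 of the flanks. Both flanks were higher than the cluster in 14. The cluster of 12 genes on chromosome 13 was the exception, with a ratio of 1.10 (0.942 to 1.30). Over the 24 clusters, levels went with those of their flanks at a Spearman's rho of 0.447 and with the number of genes at -0.364, given as a description of regions that share all their libraries.

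The cluster on chromosome 2 that runs from Olfr987 to Olfr1274 (85328467 to 90404174) is the largest, with 222 genes in 5.08 Mb. Its level was 0.485 (0.460 to 0.512), against 1.26 (1.17 to 1.36) in its flanks, a ratio of 0.384 (0.351 to 0.421). No fragment was found in 65 of its 222 genes, against 180 of all 1109 Olfr genes (16.2%). Of its 102 steps of 50 kb, 59 were under 0.5 and 1 was over 1, at 1.03, and their median was 0.498, where the steps outside had a median of 1.28. The cluster of 95 genes on chromosome 9 had a level of 0.563 (0.524 to 0.603), against 1.43 in its flanks, a ratio of 0.392 (0.355 to 0.434).

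**Figure D2:**
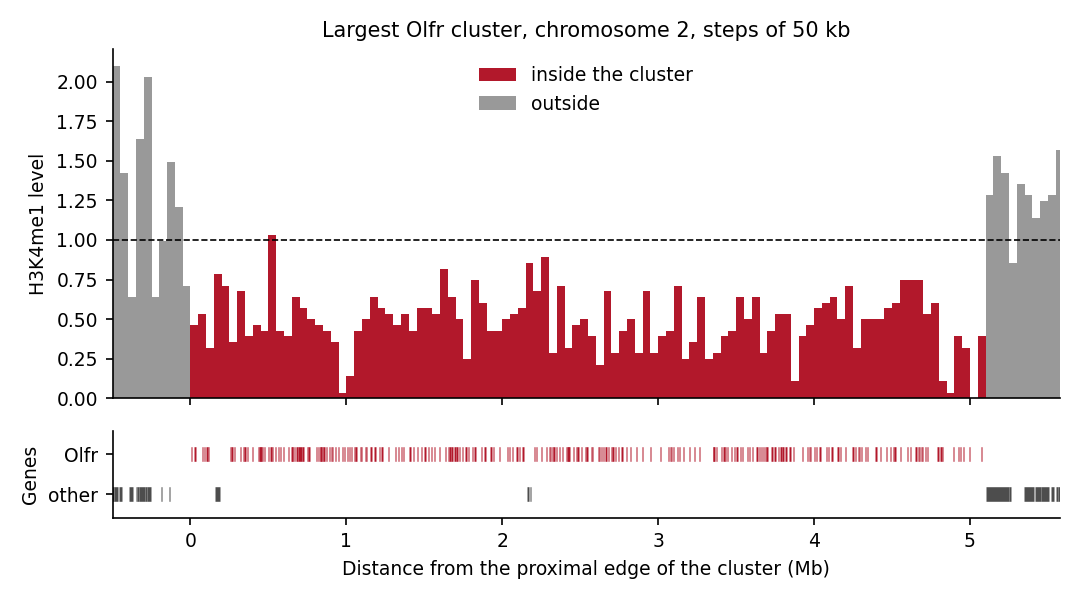
Level in steps of 50 kb along the cluster of 222 Olfr genes on chromosome 2 and the 500 kb on either side, against the distance from the cluster start, with Olfr genes and other protein-coding genes drawn as ticks. Inside, 1 of 102 steps exceeds 1, and the outside steps have a median of 1.28.

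Among the 24 large clusters, the lowest levels were 0.462 (0.380 to 0.555) in the cluster of 15 genes on chromosome 7 and 0.484 in that of 25 genes on chromosome 16. The first of these lies in flanks that were themselves at 0.507, and its ratio was 0.910 (0.725 to 1.14). Clusters of 13 genes on chromosome 1 and 37 genes on chromosome 2 followed the largest cluster, at 0.517 and 0.550. The smallest ratio, 0.338 (0.301 to 0.379), belonged to the 58 genes on chromosome 10, whose level was 0.624 and whose flanks stood at 1.85. There a single 10 kb bin of the flank (130590001 to 130600000) stood at 69.6 with 391 fragments, and without bins above 10 times the mean the flanks were at 1.07 and the ratio at 0.586 (0.515 to 0.668).

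Few large clusters reached the autosomal mean. The 13 genes on chromosome 4 (118663019 to 118937340) had a level of 1.39 (1.21 to 1.59), against 1.58 in their flanks. Without a flank bin at 24.2 that ratio was 1.03 (0.880 to 1.20) in place of 0.880 (0.755 to 1.02). The clusters of 21 and 19 genes on chromosome 11 stood at 1.27 (1.13 to 1.43) and 1.13 (1.00 to 1.27), against 1.49 and 1.32 in their flanks. The cluster of 19 genes on chromosome 7 (140159510 to 140707691) stood at 1.08 (0.965 to 1.20), against 1.81 in its flanks. All the other large clusters were at 0.797 or lower.

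Class I receptors, the older, fish-like class, lie together in a single locus on chromosome 7 in the mouse. The 200 kb joining distance divided it at Olfr649, into a cluster of 91 genes that holds Olfr78 and Olfr558 and a cluster of 35 genes from Olfr651 to Olfr692. The first had a level of 0.692 (0.640 to 0.746), against 1.01 in its flanks, and the other 0.778 (0.699 to 0.862), against 0.958. The cluster of 91 genes stood at 1.08 times (0.998 to 1.17) the level of all other large clusters together, and both class I clusters at 1.13 times (1.06 to 1.21) that of the rest. The interval of the first ratio includes 1, while that of the other, and those of several alternatives for the cluster of 91 genes, do not. The cluster of 46 genes beside the major histocompatibility region on chromosome 17 had a level of 0.714 (0.653 to 0.779), against 0.829 in its flanks.

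The level changed gradually across the cluster borders. Over the 22 clusters of 400 kb or more, the outermost 100 kb inside had a level of 0.732 (0.699 to 0.766), the first 100 kb outside 0.958 (0.919 to 0.997), and the core more than 100 kb from a border 0.602 (0.588 to 0.616). The edge was 1.22 times as high as the core (1.15 to 1.28). The first 100 kb outside was 1.31 times as high as the edge inside (1.23 to 1.39). Each cluster gives the same length to the edge, while long clusters give more to the core. The largest cluster, at 0.485 as a whole, thus weighs most in the core. Edge and core were not compared cluster by cluster, so their ratio may reflect the mix of clusters. Farther out, the next steps of 100 kb stood at 1.02, 1.04, 1.25 and 1.07, of which the highest holds the single chromosome 10 bin. In steps of 25 kb, the first inside had 0.770 (0.702 to 0.842) and the first outside 0.860 (0.789 to 0.937), which overlap, and the next outside had 0.951 and 1.04. The further steps inside, up to 200 kb, lay between 0.653 and 0.780 in no order.

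**Figure D3:**
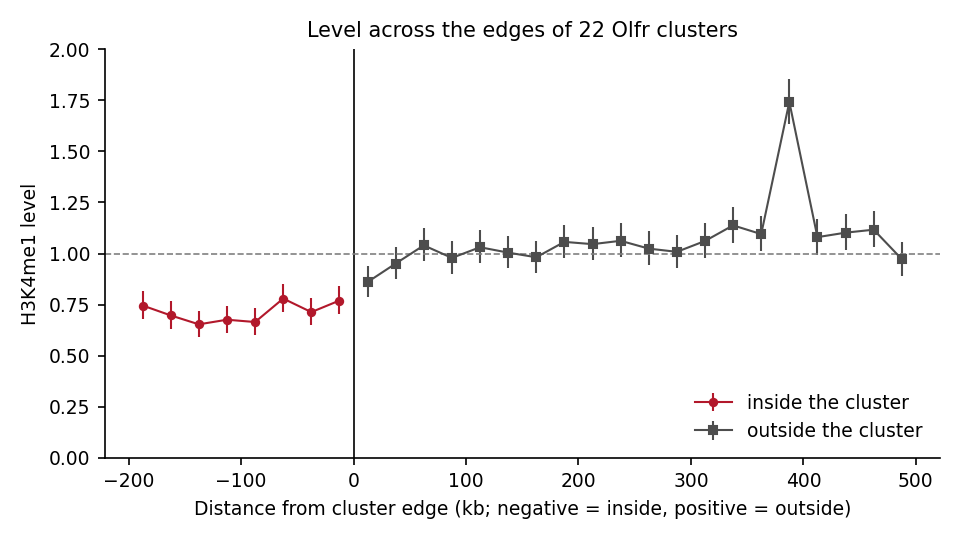
Level in steps of 25 kb against the distance from the border of the 22 Olfr clusters of 400 kb or more, pooled over both borders, with 95% counting intervals. The 100 kb inside the border lie at 0.732 and the 100 kb outside at 0.958, and the peak between 300 and 400 kb outside holds the chromosome 10 bin at 69.6.

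Single borders varied more than the pooled profile. Of the 44 borders, 30 were higher outside, 16 of them with an interval of the ratio above 1, and 2 had an interval below 1. The steepest was the Olfr1274 end of the largest cluster, at 0.0534 inside and 1.26 outside, a ratio of outside to inside of 23.7 (7.78 to 117). The near-identical Olfr1506 and Olfr1565 lie within 200 kb of that border. On chromosome 9, the borders of the 95 genes stood at 0.480 inside and 1.30 outside on the left, and at 0.729 inside and 1.6 outside on the right. The opposite held at the Olfr649 end of the cluster of 91 class I genes, where Trim genes separate it from the other class I cluster, at 1.14 inside and 0.516 outside, a ratio of outside to inside of 0.453 (0.282 to 0.713). It also held at the left end of the 19 genes on chromosome 11, at 1.42 inside and 0.712 outside.

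Pooled over clusters, genes deep inside were lower than those near the borders. In clusters of 10 or more genes, the windows of 622 genes more than 200 kb from a border had a level of 0.518 (0.489 to 0.549). Those of 242 genes at 50 to 200 kb had 0.773 (0.720 to 0.830), and those of 123 genes within 50 kb had 0.889 (0.806 to 0.979). The median gene levels were 0.35, 0.60 and 0.60, in the same order. By the median, only the genes more than 200 kb from a border were thus lower, with no further rise toward the border. No fragment was found in 127 of the 622, 30 of the 242 and 15 of the 123 genes. Promoter GC rose with the summed level, with medians of 33.3%, 36.7% and 38.5%. The position classes are filled by different clusters, since only those longer than 400 kb can hold genes more than 200 kb from a border. Olfr windows stood at 0.396 in the largest cluster and at 1.91 in the 274 kb cluster of 13 genes on chromosome 4. Position was not separated from cluster.

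GC content and level went together throughout. When the genes were split into 3 groups by promoter GC, the 331 of the lowest GC (18.3 to 33.0%) had a level of 0.474 (0.436 to 0.515), and the 310 of the highest GC (38.3 to 62.3%) had 0.986 (0.933 to 1.04). Among genes more than 200 kb from a border, those groups stood at 0.433 (0.390 to 0.478) and 0.643 (0.564 to 0.730), and among genes within 50 kb at 0.466 (0.325 to 0.649) and 1.31 (1.15 to 1.48). Across the 24 clusters, median promoter GC (30.8 to 45%) and level had a Spearman's rho of 0.738. Promoters with TAATTA had a level of 0.594 and those without it 0.713, a ratio of 0.833 (0.746 to 0.928), and their median GC was 33.0% and 35.7%. Genes whose promoter shares a 50-base run with another promoter stood at 0.688, and the others at 0.693.

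At promoter GC of 30 to 50%, Olfr windows had lower summed levels than other windows of similar size in each range, with overlapping intervals. Overlap does not show equal levels, and no interval of the ratio was taken here. Medians went the other way from 40 to 45% (0.896 for Olfr genes, 0.808 for others) and from 45 to 50% (1.19 and 1.03). From 30 to 35% GC, Olfr genes had a level of 0.540 (0.498 to 0.584) and the others 0.633 (0.525 to 0.758), and from 35 to 40% they had 0.622 (0.574 to 0.673) and 0.700 (0.644 to 0.760). From 40 to 45% the levels were 0.949 (0.871 to 1.03) and 0.962 (0.911 to 1.01), and from 45 to 50% they were 1.08 (0.962 to 1.21) and 1.13 (1.09 to 1.17). Among the other genes, 26 of 49, 91 of 206, 18 of 289 and 3 of 483 in these 4 ranges are themselves chemoreceptors. Under 30% the medians were 0.300 and 0.593 and the intervals did not reach each other, at 0.408 (0.354 to 0.469) for 132 Olfr genes and 0.769 (0.539 to 1.06) for 13 others, 12 of which are chemoreceptors. What GC does to fragment recovery in this assay was not tested.

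Within clusters, the receptor genes themselves stood above the DNA beside them. For the 899 autosomal Olfr models of up to 1100 bp, the gene had a level of 1.18 (1.09 to 1.28, from 572 fragments). The DNA 1 to 5 kb away on either side had 0.652 (0.626 to 0.678), a ratio of 1.81 (1.65 to 1.99). Bases within 1 kb of any Olfr gene were left out of these sides. The fragments were spread out: 383 of these genes (42.6%) had at least 1, none had more than 7, and the top 10 held 44 of the 572. The whole windows in large clusters stood at 0.633 and the rest of those clusters at 0.647, a ratio of 0.979 (0.934 to 1.03). That ratio was 1.06 (0.998 to 1.12) with 1 kb on either side and 1.37 (1.27 to 1.46) for the gene alone.

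The same contrast was seen in most subsets, at different heights. In the largest cluster the genes stood at 0.650 and their sides at 0.466, in the other clusters of 10 or more genes at 1.25 and 0.653, and in the smaller ones at 1.78 and 1.01. In the group of lowest promoter GC the genes stood at 0.891 and the sides at 0.524, a ratio of 1.70, and in that of highest GC at 1.61 and 0.923, a ratio of 1.75. Genes with a promoter run shared with another promoter had a ratio of 1.68, and those without one 1.90. Of the 13 libraries with 20000 or more fragments, 12 were higher over the gene, 11 with an interval above 1, and the ratios ran from 0.834 to 2.40 with a median of 1.85. Olfr pseudogenes had a ratio of 1.34 (1.06 to 1.68), Vmn1r genes 1.32 (1.02 to 1.69), and 253 other protein-coding genes of 700 to 1100 bp 1.10 (0.922 to 1.30).

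**Figure D4:**
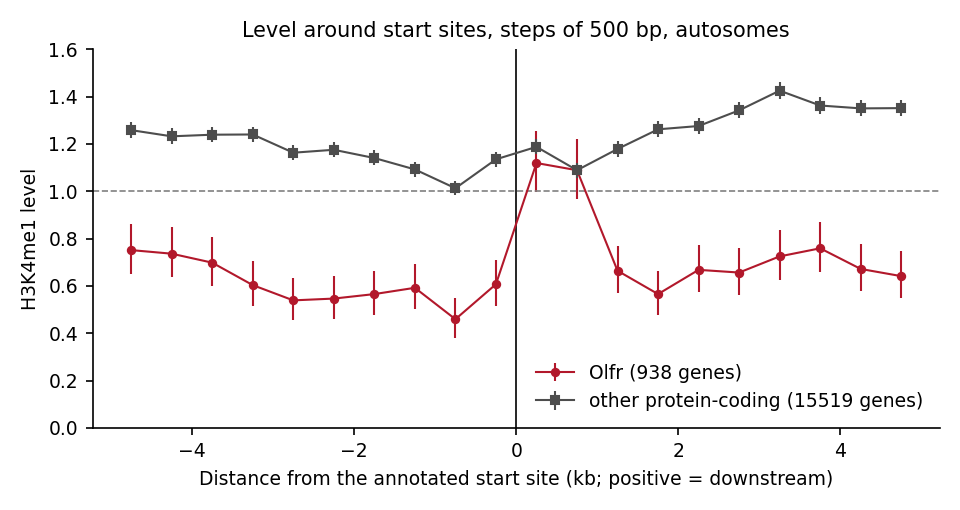
Level in steps of 500 bp against the distance from the annotated start, along the direction of transcription, for 938 Olfr genes and 15519 other protein-coding genes, with 95% counting intervals. Olfr genes reach 1.12 and 1.09 over the 1000 bp after the start, which span most of the coding exon, and return to 0.664 after it. Most Olfr models start at the coding sequence, so steps need not match between both sets.

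Aligned at their starts, Olfr genes had a level of 0.459 at 500 to 1000 bp upstream and 0.607 in the 500 bp upstream. They reached 1.12 (0.995 to 1.25) and 1.09 in the first and second 500 bp downstream and had 0.664 in the next. Other protein-coding genes had 1.01, 1.13, 1.19, 1.09 and 1.18 over the same steps, and 1.43 at 3 to 3.5 kb downstream. Over the first 1000 bp downstream both sets were thus within 0.1 of each other, while upstream Olfr genes were lower. Most Olfr models start at the coding sequence, with ATG at 72.7% of starts, so a step need not be the same part of a gene in both sets.

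Pooled over clusters, other genes lying inside them stood higher than the Olfr genes. The windows of 56 protein-coding genes of other names had a level of 1.15 (1.06 to 1.24) and a median of 1.01, and outside Olfr windows they had 1.13 (1.05 to 1.22). Olfr windows stood at 0.553 times (0.507 to 0.603) that level. Both sets are spread differently over the clusters, and gene type was not separated from cluster. Of the 56, 10 had an interval above 1 (17.9%, against 28.2% of all protein-coding genes) and 5 below it (8.93%, against 8.25%). Cd163l1, a scavenger receptor gene of γδ T cells, had 70 fragments and a level of 3.20 (2.49 to 4.04). Fam183b had 2.52, Trim58, a ubiquitin ligase gene, had 2.31, and Btnl9, a butyrophilin-like gene, had 2.17. Cd163l1 and these genes lie in clusters of 19 or 21 genes whose Olfr windows stood at 1.22 to 1.36. In the largest cluster Olfr windows stood at 0.396, and Fads2b, Pramel7 and Pramel6 at 0.536, 0.854 and 1.53. Usp17la, a deubiquitinase gene with near-identical copies, had 2.51, which is uncertain for that reason.

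Among genes with many protein-coding neighbours, Olfr genes stood lower than other genes. The neighbours counted include other Olfr genes, so a high count follows in part from clustering, and the surroundings of both sets are not alike. When all genes were divided into 5 equal groups by the number of protein-coding neighbours within 500 kb, 677 Olfr genes (61.4%) fell in the densest, with 32 to 71 neighbours. There the Olfr windows had a level of 0.670 (0.639 to 0.702), against 1.62 (1.61 to 1.64) for other genes. In the next group the levels were 0.719 and 1.51, and in the middle one 0.80 and 1.38. Other genes thus stood higher where genes were denser, and Olfr genes had no such order. Outside all protein-coding genes the large clusters had a level of 0.607 (0.594 to 0.620) and their flanks 1.01 (0.987 to 1.04).

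The clusters were low but rarely empty. Of the 233 bins of 100 kb lying in them, 178 (76.4%) had a level under 0.75, against 34.8% of all autosomal bins, with a median of 0.587, against 0.925. Of 486 bins of 50 kb, 1 held no fragment, and 6 (1.23%) were under 0.2, against 5.31% of all bins. At 50 kb and 10 kb, all bins include X and Y, while the large clusters are autosomal. Of all 53245 bins of 50 kb, 1671 held no fragment, so that background is not a like one. Of the 6 cluster bins under 0.2, 5 lie in the largest cluster, at Olfr1053 to Olfr1055 and around Olfr1270, Olfr1506 and Olfr1565. The other lies at Olfr794 on chromosome 10. Of 2535 bins of 10 kb, 1 (0.0394%) reached 3 times the mean, against 0.471% of all bins. It lies at Cd163l1 on chromosome 7 (140220001 to 140230000), at 7.29 (5.23 to 9.90), and its 41 fragments came from 13 libraries.

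The difference between clusters and flanks was seen in each library. In the 13 libraries with 20000 or more fragments, clusters of 10 or more genes stood at 0.566 to 0.747 with a median of 0.649, and their flanks at 0.987 to 1.25 with a median of 1.11. No cluster level reached any flank level. The ratios ran from 0.488 to 0.710 with a median of 0.576, and all 13 intervals lay below 1. The smallest library, with 7106 fragments, had 0.623 (0.455 to 0.834) in clusters and 1.83 in flanks. Libraries named 4 stood at 0.620 in clusters and 1.10 in flanks, and those named 5 at 0.648 and 1.12.

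**Figure D5:**
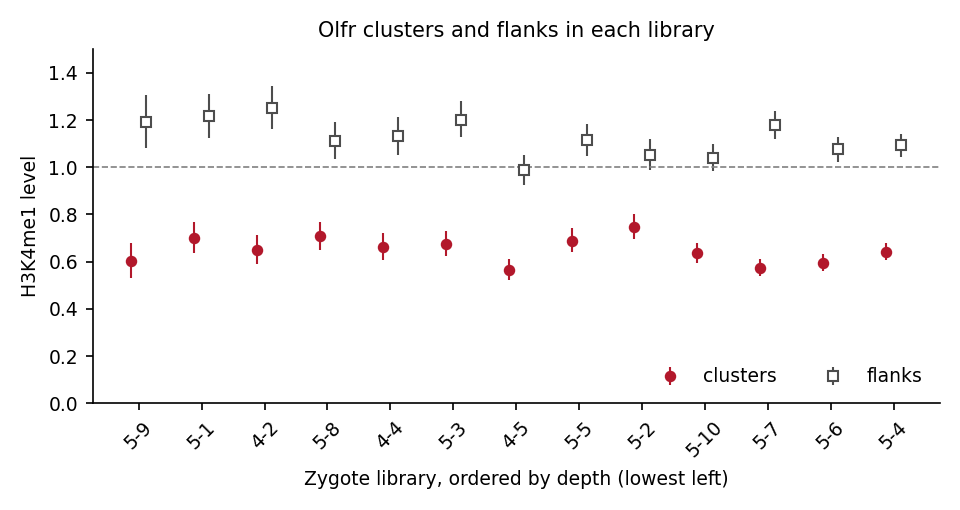
Level in the clusters of 10 or more Olfr genes beside that in their 500 kb flanks for each of the 13 libraries with 20000 or more fragments, with 95% counting intervals. Clusters lie between 0.566 and 0.747, and flanks between 0.987 and 1.25.

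The genes that serve olfactory receptors in sensory neurons stood higher than the receptors. Of a list of 32 signalling, trafficking, receptor choice and axon guidance genes, 13 had an interval above 1 (40.6%, against 28.2% of all protein-coding genes), 1 below it and none was without a fragment, and the median level was 1.32, against 1.19. Their windows are wide, with a median of 64.9 kb, against 22.2 kb over all genes, which makes such a call easier and an empty window less likely. Among 13 signalling genes 5 were above 1 and none below. Omp, the olfactory marker protein gene, had a level of 3.01 (1.56 to 5.26, 12 fragments), Cnga4, a subunit of the olfactory ion channel, had 2.20 (1.28 to 3.52), and Adcy3, the adenylyl cyclase of the cilia, had 1.37 (1.06 to 1.75). Cnga2, the main channel subunit, had 0.990 (0.527 to 1.69), Gnal, the olfactory G protein, had 1.19 (0.964 to 1.45), and Gng13, a G protein subunit, had 0.770 (0.159 to 2.25). Among genes of receptor choice, Ebf4 and Ebf3 had 1.97 (1.58 to 2.42) and 1.80 (1.51 to 2.13), Emx2 had 1.98 (1.06 to 3.39), and Lhx2 and Ldb1 had 0.903 (0.535 to 1.43) and 1.32 (0.753 to 2.14). Kirrel2, an adhesion gene of olfactory axons, was the highest at 3.62 (2.44 to 5.17), and Ncam2, an adhesion gene of the same axons, was the lowest at 0.477 (0.394 to 0.573).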

How the data were processed

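The measurements are fragments of single-zygote H3K4me1 CUT&Tag libraries. The deposited table lists 1 fragment per line with its library name, and the counts of fragments used here were made from those lines. The build is mm10, per the submitters' processing notes. The aligner, the filters on mapping quality and the handling of duplicate fragments are not given in any source used here. Reads that fit near-identical copies may therefore have been dropped or placed at random, which bears on a family of duplicated genes.

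Of 1424363 lines, the 14 libraries with 5000 or more fragments on chromosomes 1 to 19, X and Y held 1404305, between 7106 and 197312 each. A fragment was placed at its midpoint. Genes came from RefSeq GRCm38.p6, and those lying outside the first to last fragment of their chromosome were left out (111 protein-coding, 1 of them Olfr). Both sides of a ratio come from the same libraries, and the ratio's interval is the exact conditional binomial one. Parts of a flank lying in another cluster were left out.

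The members and all lists were chosen with earlier results of these data known. The named genes are well-studied receptors, the 10 with the highest lower bounds, and the 5 with the widest windows of those without a fragment. Other genes named by their position or their bins were picked with their values in view. Set tests, p-values and protein sequences were not used here. The scripts recovered known levels on simulated fragments. Alternatives changed the libraries, the placement and length of fragments, the baseline, the windows, the joining distance and the flanks. Python 3.11.15, numpy 2.4.6, pandas 2.3.3, scipy 1.17.1 and matplotlib 3.10.9 were used.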

Additional observations from a re-analysis of the deposited data

How the results depend on the processing

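No paired analysis was possible because the 2 batches lie in 1 table of which no library name can be tied to a batch. The ratio of windows to the rest of clusters, 0.979 with an interval that includes 1, was above 1 in 3 alternatives given below, and no other result changed direction under an alternative that was run. Leaving out each library in turn gave an Olfr window level of 0.688 to 0.708, a median of 0.60 to 0.664, a cluster level of 0.668 to 0.684 and a ratio of clusters to flanks of 0.566 to 0.588. It gave a ratio of edge to core of 1.19 to 1.24, of outside to inside of 1.28 to 1.34, of windows to the rest of clusters of 0.968 to 0.998, of the 91 class I genes' cluster to the others of 1.04 to 1.11 and of genes to their sides of 1.75 to 1.86. It gave 16 to 21 clusters below their flanks, 23 to 31 genes above the mean and 16 to 22 below it.

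The Olfr window level was 0.722 with libraries named 4 alone, 0.664 against the own chromosome, 0.744 with 1 kb on either side, 0.905 for the gene alone and 0.767 without the largest cluster. The median was 0.60 with libraries of 20000 or more fragments and also without bins above 10 times the mean, 0 with libraries named 4 alone and also for the gene alone, and 0.495 with libraries named 5 alone. It was 0.627 without fragments under 120 bp, 0.556 against the own chromosome, 0.604 with 1 kb and 0.638 with 5 kb. The ratio of clusters to flanks was 0.551 with libraries weighted equally, 0.561 with libraries named 4 alone, 0.601 without fragments under 120 bp and 0.599 without the high bins. It was 0.548 with windows joined within 100 kb, 0.612 with flanks of 200 kb and 0.615 without the largest cluster. The cluster level was 0.646 against the own chromosome and 0.689 with windows joined within 500 kb. The ratio of windows to the rest of clusters was 1.06 with libraries named 4 alone and also with 1 kb, and 1.37 for the gene alone, and the ratio of outside to inside was 1.43 with windows joined within 100 kb. With libraries named 4 alone, the ratio of edge to core was 1.15, that of the cluster of 91 class I genes to the others 1.22, 11 clusters lay below their flanks and 0 genes below the mean. Genes above the mean numbered 19 with 1 kb, and genes below it 40 against the own chromosome, 170 with 5 kb and 12 for the gene alone. The interval of that class I ratio lay above 1 without library 4-4, 5-3, 5-4, 5-6 or 5-11 (1.09 to 1.11), with libraries of 20000 or more fragments (1.09), with libraries named 4 alone, without fragments under 120 bp (1.09), with windows joined within 100 kb (1.11) or 500 kb (1.09), and with the other class I cluster taken along (1.13, chosen after seeing the data). The ratio of genes to their sides, a result added after the data were seen, was 1.71 to 1.95 over its 12 other settings. The settings without the largest cluster were also chosen after seeing the data. Fewer fragments widen the intervals in the settings that leave out libraries or shrink windows, and the cause of the other differences was not tested.

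Depth limits single genes: with a median of 2 fragments per window, even Olfr1509 at 0 and Olfr15 at 1.80 overlap in their intervals.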

Other observations

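The 317 Olfr pseudogenes of the annotation, which entered no cluster, had a window level of 0.634 (0.587 to 0.685), beside 0.696 for the protein-coding Olfr genes. Fragments in the clusters of 10 or more genes were longer than those in their flanks, with a median of 334 bp, against 316 bp in the flanks and 322 bp over the autosomes. Fragments under 120 bp made up 3.5% of those in clusters (3.14 to 3.90), against 7.46% in flanks (7.02 to 7.91) and 4.93% over the autosomes. The flanks include the 10 kb bins at 69.6 and 24.2 times the mean, with 391 and 136 fragments. Their part in the flank lengths was not tested. Fragments of 150 to 250 bp made up 27.3% in clusters and 26.3% in flanks.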
